A study of Mus musculus with 6 samples.

Results

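The genes described are the Krüppel-like factors Klf2, Klf4, Klf6 and Klf10, the endothelial nitric oxide synthase gene Nos3, the endothelin-1 gene Edn1 and Ece1, the gene of an enzyme that converts endothelin. They are the 7 entries of the deposited gene table that carry these symbols, of 17463 entries in all, and each was found once. They were measured by RNA sequencing in MLECs, cultured cells of the mouse lung labelled as endothelial, the type that lines vessels. There were 3 libraries of the genotype HEY1-WT KI, called WT below as in the deposited columns, and 3 of HEY1-3KR KI, called 3KR. All 6 came from mice labelled Hey1 iEC-KO, so both groups share that knockout label. By their genotype labels both carry a knock-in (KI) of HEY1, either wild-type or 3KR, without treatment. HEY1 is a transcriptional repressor induced by Notch signalling, and the title of the series concerns its modification by SUMO, a small protein attached to lysines. The labels do not spell out 3KR, nor iEC, and do not give the driver of the knockout, the number or age of the mice, or the day of isolation. If the 2 genotypes were handled on different days, that difference and the genotype cannot be told apart. Whether the 3 replicates of a group are separate animals or cultures is not stated either, so p-values here measure a spread that may be technical.

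Krüppel-like factors are zinc finger proteins that bind GC-rich and CACCC-type sequences. In endothelium laminar flow acts through the kinases MEKK3, MEK5 and ERK5 and the MEF2 factors to raise KLF2 and KLF4, which raise NOS3 and the anticoagulant gene THBD and restrain endothelin-1 and adhesion molecules. Nitric oxide, made by eNOS from arginine, relaxes vessels through guanylate cyclase in smooth muscle, whereas endothelin-1, released by ECE1 from a larger precursor, constricts them through the receptor EDNRA. These cultures were grown without any flow treatment in the labels.

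Expression is given as FPKM, a fragment number divided by transcript length and by the size of its library, which allows levels of different genes to be compared. The estimated depth was 16.2 to 19.7 M fragments per library, where M stands for 1000000. Libraries of the same genotype correlated at 0.994 to 0.996 across the 11432 genes tested and libraries of different genotypes at 0.960 to 0.964. Hey1 itself read 2.21, 2.16 and 2.25 FPKM in WT and 5.71, 5.24 and 4.87 FPKM in 3KR, and the labels do not say whether the knock-in transcript is counted there. The labelled cell type was checked against 12 endothelial markers, all of which were detected, and 11 were higher in 3KR and none lower, with a median log2 fold change of 0.65. Their summed level was 239.0 to 249.2 FPKM in WT and 408.1 to 415.4 FPKM in 3KR. Markers of other cells were abundant as well. The summed level of 12 macrophage markers was 3982 to 4062 FPKM in WT and 5134 to 5391 FPKM in 3KR, and all 12 were higher in the latter. By the mean over all 6 libraries, the most abundant of them were Lyz2, at 3138 and 3482 FPKM on average, a call lost after quantile normalization (limma adjusted p = 0.126) and without the filter (limma adjusted p = 0.0992), and C1qb, 2.28-fold higher at 471.9 FPKM. Of 8 fibroblast markers 7 were tested and all 7 were higher, with a summed level of 601.3 to 609.3 against 1148 to 1162 FPKM, led by Col1a1 and Col1a2 (2.14-fold and 1.47-fold). Of 9 lung epithelial markers 7 were higher, with a summed level of 106.1 to 213.4 against 407.4 to 618.1 FPKM. Sftpc, the surfactant gene of alveolar type II cells, was 5.39-fold higher, and Scgb1a1, a club cell gene, passed only without WT or 3KR replicate 3 (limma adjusted p = 0.0041 and 0.0379). Of 8 smooth muscle and pericyte markers 7 were tested, 3 were lower and none higher, and the summed levels overlapped, at 1031 to 1053 and 1027 to 1064 FPKM; the most abundant, Acta2 and Tagln, did not pass. No marker on these lists was at 0 in all libraries. In bulk RNA, a different number of cells of a type and a different amount of transcript per cell cannot be told apart.

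The KLF factors, eNOS and endothelin genes split in 3KR. Nos3 and Edn1 were higher, Klf4 and Klf6 were lower, and Klf2, Klf10 and Ece1 did not pass the test. All 7 passed the filter on low values, at least 1 FPKM in at least 3 libraries. The 4 calls (limma on log2(FPKM + 1), Benjamini-Hochberg adjusted p below 0.05 over all genes tested) stand against a background in which 53.2% of the 11432 genes were called, 29.9% higher and 23.4% lower. Higher calls outnumbered lower ones in the values as deposited, at 3414 against 2670, but not when rescaled, at 3016 against 3096 after median-of-ratios scaling and 2915 against 3281 after quantile normalization. With 4 of 7 called, these genes were close to that background, so the count itself is no feature of them. The groups did not overlap in the same 4 genes, against 61.1% of all genes tested. Their median log2 fold change was 0.00040 and that of all genes tested was 0.019. In size, Klf4 stood farthest out of the 7 in the distribution of the 11432 genes, followed by Nos3. The log2 fold change of Klf4 was larger in absolute size than that of 96.3% of genes and that of Nos3 larger than that of 88.5%, whereas the values for Edn1, Klf6, Klf10, Ece1 and Klf2 were 65.7%, 35.8%, 34.5%, 17.3% and 0.157%.

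**Figure D1:**
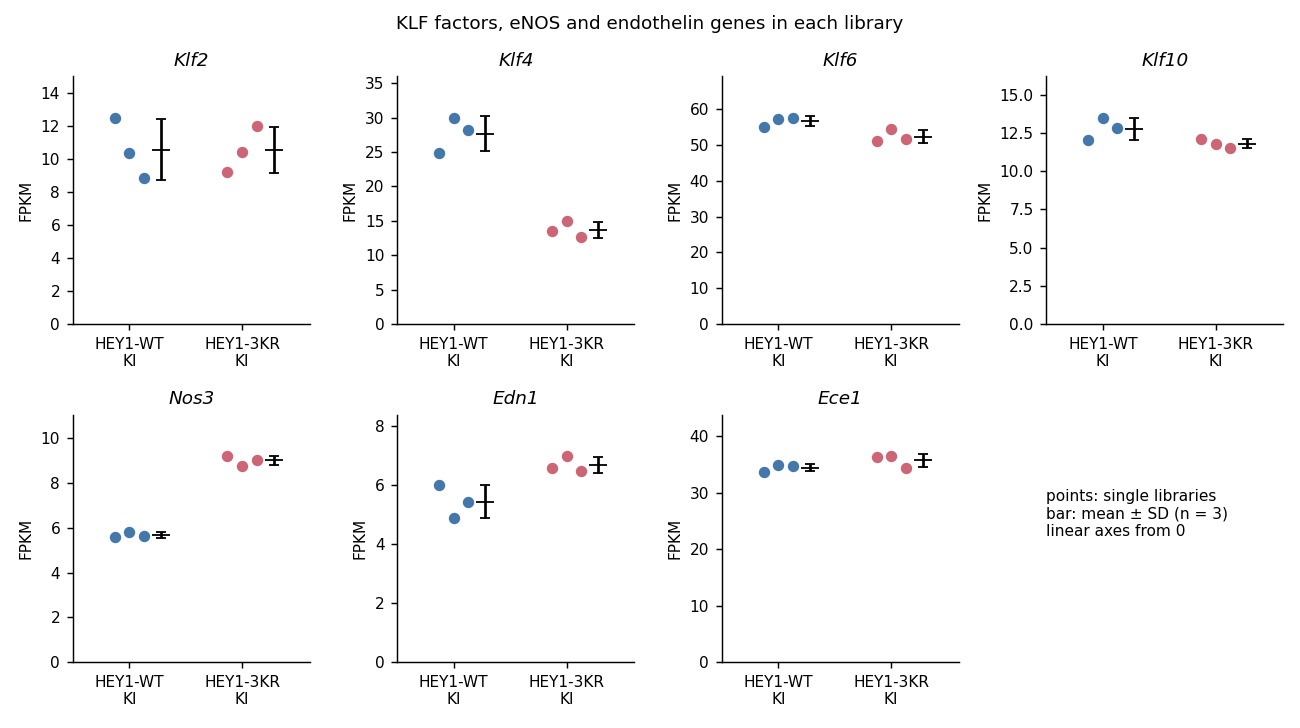
FPKM of the 7 genes (linear vertical axes from 0) in the 3 WT and 3 3KR libraries, with points for single libraries and a bar for the mean ± SD. The genotypes are separated in Klf4, Klf6, Nos3 and Edn1, most widely in Klf4 (27.7 against 13.7 FPKM) and Nos3 (5.68 against 9.00 FPKM), and overlap in Klf2, Klf10 and Ece1.

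Klf4, a factor with anti-inflammatory roles in endothelium that is also expressed by macrophages and fibroblasts, lies on chromosome 4 at 55527137 to 55532475 (RefSeq, GRCm38.p6, minus strand). It read 24.9, 30.0 and 28.2 FPKM in WT and 13.5, 15.0 and 12.6 FPKM in 3KR. Every 3KR library was below every WT library, and the highest of the former was well under the lowest of the latter. The mean was 27.7 ± 2.59 FPKM in WT and 13.7 ± 1.18 FPKM in 3KR (SD, n = 3 libraries per genotype), 2.02-fold lower. The log2 fold change was -0.96 ± 0.077 (SE; 95% interval -1.14 to -0.79; limma, Benjamini-Hochberg adjusted p = 1.2e-05), and 1.21% of the genes tested had a lower value. Because the annotation (GENCODE M21) holds 3 transcripts of Klf4 and the table holds 1 value per gene, isoforms were not separated.

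Klf2, the flow-induced relative of Klf4 that marks quiescent endothelium, lies on chromosome 8 at 72319062 to 72321654 on the plus strand. It read 12.5, 10.4 and 8.85 FPKM in WT and 9.20, 10.4 and 12.0 FPKM in 3KR. Both genotypes covered nearly the same range. The means were 10.6 ± 1.84 and 10.5 ± 1.41 FPKM, and the log2 difference was 0.00040 ± 0.120 (standard error; limma, Benjamini-Hochberg adjusted p = 0.998). Its 95% interval of -0.27 to 0.27 corresponds to 0.827-fold to 1.21-fold on the log2(FPKM + 1) scale, which does not hold a change of the size seen in Klf4. Of the 12 endothelial markers, 11 were higher in the same libraries, and the part of that in the value of Klf2 was not tested. Klf2 was the most variable of the 7 genes between libraries of a genotype, with a coefficient of variation of 17.4% in WT and 13.4% in 3KR, and its spread exceeded that of 97.3% of the genes tested. Klf2 has a single annotated transcript of 1847 bases, for which the estimated depths correspond to about 288 to 444 fragments per library and to a coefficient of variation of 4.74% to 5.89% from counting alone.

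Since these related factors share targets, their levels were also set against each other within a library. The ratio of Klf2 to Klf4 was 0.503, 0.346 and 0.314 in WT and 0.684, 0.697 and 0.951 in 3KR. All 3 ratios of 3KR were above those of WT, with means of 0.777 ± 0.151 and 0.388 ± 0.101, 2.00-fold higher (exact two-sided permutation p = 0.1, the smallest that 3 against 3 libraries allow). In neither genotype did Klf2 exceed Klf4.

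Klf6, a factor of injury and inflammatory responses that is widely expressed, including in macrophages, lies on chromosome 13 at 5861489 to 5870393 on the plus strand. It had the highest level of the 7 genes, at 55.0, 57.4 and 57.6 FPKM in WT and 51.1, 54.3 and 51.6 FPKM in 3KR. The groups did not overlap, but the nearest libraries were within 1 FPKM of each other. The mean went from 56.6 ± 1.44 to 52.3 ± 1.75 FPKM, 1.08-fold lower, with a log2 fold change of -0.11 ± 0.038 (SE; 95% interval -0.20 to -0.026; limma, Benjamini-Hochberg adjusted p = 0.0336). Klf6 no longer passed when WT replicate 2 or 3 was left out (limma adjusted p = 0.0922 and 0.105) or 3KR replicate 1 or 3 was (limma adjusted p = 0.114 and 0.0906), and without the variance trend (limma adjusted p = 0.0644).

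Klf10, a TGF-beta-inducible repressor also named Tieg1, lies on chromosome 15 at 38291464 to 38300711 on the minus strand. It read 12.1, 13.5 and 12.8 FPKM in WT and 12.1, 11.8 and 11.5 FPKM in 3KR, so the lowest WT library lay just under the highest 3KR library. The means were 12.8 ± 0.719 and 11.8 ± 0.282 FPKM, with a log2 fold change of -0.11 ± 0.048 (SE; 95% interval -0.22 to 0.0030; limma, Benjamini-Hochberg adjusted p = 0.0924). It passed after median-of-ratios scaling (limma adjusted p = 0.0399), after quantile normalization (limma adjusted p = 0.0439) and without WT replicate 1 (limma adjusted p = 0.0349). By the means, Klf6 differed from WT by -7.60% and Klf10 by -7.79%, so genes with similar differences lay on either side of the threshold.

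Promoter sequence is shown for the 3 KLF genes that RefSeq places in the promoter table, where Klf10 and Nos3 have no entry. HEY proteins bind the E-box CACGTG and the related sequence that ends in CGCG, and the Klf2 promoter is known for a MEF2 site. Of the 7 genes, 5 had 8 promoter entries in the table, among them Edn1 and Ece1, which has 4 starts. Each sequence runs 5′ to 3′ on the gene's strand from 230 to 31 bases before the RefSeq start (GRCm38.p6), and capitals mark CACGTG in Klf4 and Klf6 and the MEF2 motif in Klf2.
Klf4 (chr4:55532506-55532705, minus strand): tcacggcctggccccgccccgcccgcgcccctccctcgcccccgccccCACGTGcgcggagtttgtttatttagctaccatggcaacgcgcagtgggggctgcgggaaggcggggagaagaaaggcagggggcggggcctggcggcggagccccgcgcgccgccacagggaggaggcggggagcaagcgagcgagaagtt
Klf6 (chr13:5861259-5861458, plus strand): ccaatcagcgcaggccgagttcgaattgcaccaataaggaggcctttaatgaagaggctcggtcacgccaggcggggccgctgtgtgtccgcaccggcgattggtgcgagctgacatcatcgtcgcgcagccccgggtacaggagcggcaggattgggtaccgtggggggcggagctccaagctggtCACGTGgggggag
Klf2 (chr8:72318832-72319031, plus strand): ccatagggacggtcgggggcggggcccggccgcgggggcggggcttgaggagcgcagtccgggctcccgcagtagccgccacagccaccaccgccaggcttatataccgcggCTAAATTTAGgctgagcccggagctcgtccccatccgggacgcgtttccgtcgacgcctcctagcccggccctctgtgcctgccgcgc
CACGTG began 182 bases before the start of Klf4 and 43 bases before that of Klf6. It was also found 90 bases before 1 of the 4 starts of Ece1, which did not pass the test, and not in these windows of Klf2 and Edn1. Of all 32851 windows of 200 bases in the promoter table, 4.74% held it. The related sequence CACGCG, searched on both strands, was in none of the 8 windows and in 6.09% of all. The MEF2 motif began 118 bases before the start of Klf2, was in no other of the 8 windows and was in 2.31% of all. The letters CACCC on either strand, which KLF factors can bind, were in windows of Edn1 and Ece1 and in 45.1% of all. These are matches of letters. Binding was not measured, and whether any of these motifs has a part in the changes was not tested.

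Nos3, the synthase that makes nitric oxide in endothelium, lies on chromosome 5 at 24364816 to 24384474 on the plus strand. It read 5.58, 5.82 and 5.65 FPKM in WT and 9.19, 8.76 and 9.04 FPKM in 3KR. The groups were far apart compared with the spread within each, which was 2.16% and 2.41% of the mean. The means were 5.68 ± 0.123 and 9.00 ± 0.217 FPKM (SD, n = 3), 1.58-fold higher in 3KR, with a log2 difference of 0.58 ± 0.043 (SE; 95% interval 0.48 to 0.68; limma, Benjamini-Hochberg adjusted p = 7.1e-06). The locus is shared with genes of the opposite strand. The antisense gene Gm15587 overlaps it over 17423 bases and had no entry in the table, and Atg9b overlaps it over 294 bases and read 0.335 to 0.531 FPKM in WT and 0.590 to 0.609 FPKM in 3KR. Whether counting used strand is not given in the sources used here, so reads of the antisense gene and of Nos3 cannot be told apart.

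Nos3 is largely restricted to endothelium, and other endothelial transcripts were higher in the same libraries. Of the 12 endothelial markers, 8 had a larger fold than Nos3 and 4 a smaller one. Cdh5, which encodes VE-cadherin, the adhesion molecule of endothelial junctions, rose 1.70-fold, from 77.7 ± 4.44 to 132.5 ± 2.89 FPKM, and Cldn5, a claudin of their tight junctions, rose 2.00-fold. The ratio of Nos3 to Cdh5 was 0.0765, 0.0714 and 0.0717 in WT and 0.0700, 0.0645 and 0.0693 in 3KR. Set against this gene, Nos3 was therefore slightly lower in all 3 libraries of 3KR than in those of WT, with means of 0.0732 ± 0.00291 and 0.0679 ± 0.00297 (exact two-sided permutation p = 0.1, the smallest possible). The part of this rise of endothelial transcripts in the value of Nos3 was not tested.

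**Figure D2:**
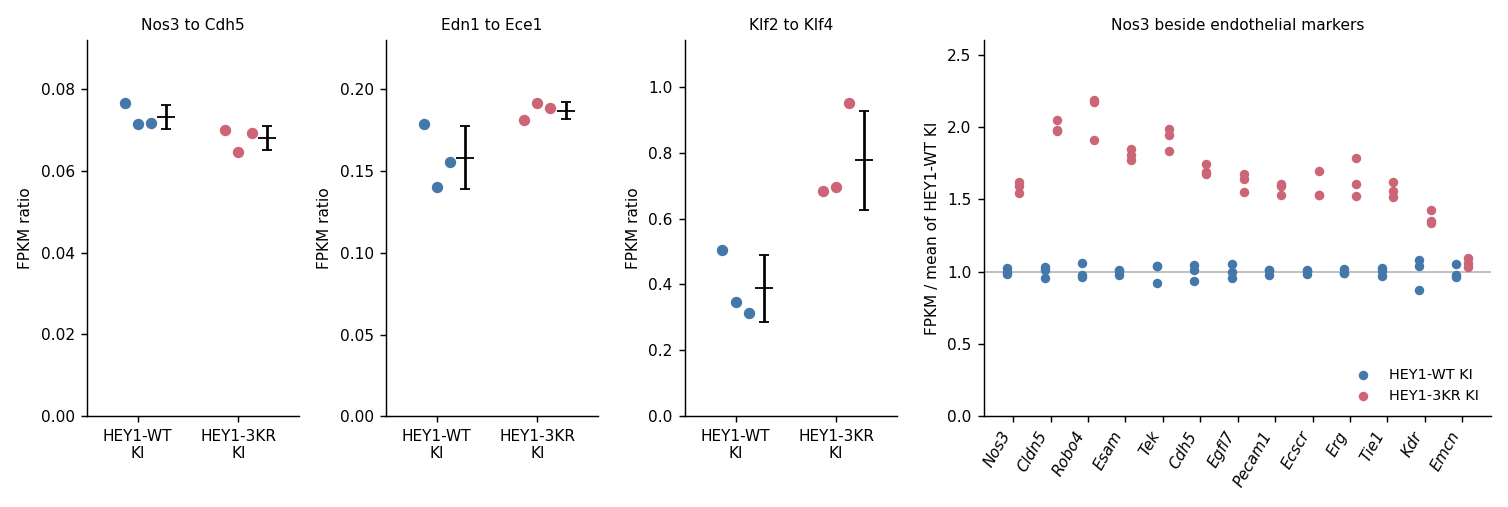
Left 3 panels, ratios of FPKM per library (linear axes from 0, bar for mean ± SD, n = 3) of Nos3 to Cdh5, Edn1 to Ece1 and Klf2 to Klf4, and right panel, FPKM of Nos3 and 12 endothelial markers in each library divided by the mean of WT. Nos3 (1.58-fold) lies within the range of the endothelial markers, and the Klf2 to Klf4 ratio is 2.00-fold higher in 3KR (blue points WT, red points 3KR).

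Edn1 encodes the precursor of endothelin-1, a potent vasoconstrictor peptide, and lies on chromosome 13 at 42301476 to 42307990 on the plus strand. It read 6.01, 4.90 and 5.41 FPKM in WT and 6.57, 6.98 and 6.48 FPKM in 3KR. All 3 3KR libraries were above all 3 WT libraries, with a narrow gap between the groups. The group mean rose from 5.44 ± 0.555 to 6.68 ± 0.268 FPKM, 1.23-fold, with a log2 fold change of 0.26 ± 0.067 (SE; 95% interval 0.10 to 0.41; limma, Benjamini-Hochberg adjusted p = 0.0110). The part of the rise of endothelial markers in this value was not tested either. Edn1 has a single annotated transcript of 2139 bases, and its levels correspond to about 205 to 267 fragments per library, or 6.12% to 6.99% of counting noise. The antisense gene Gm47118 overlaps 2694 bases of the locus and had no entry in the table.

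Ece1, a membrane metalloprotease that cleaves big endothelin-1 to the active peptide, lies on chromosome 4 at 137862237 to 137965229 on the plus strand. It read 33.6, 34.9 and 34.7 FPKM in WT and 36.3, 36.4 and 34.4 FPKM in 3KR, where the lowest library fell among those of WT. The means were 34.4 ± 0.673 and 35.7 ± 1.13 FPKM and the log2 fold change was 0.051 ± 0.037 (SE; 95% interval -0.033 to 0.14; limma, Benjamini-Hochberg adjusted p = 0.276). Ece1 has several isoforms made from alternative starts, 4 RefSeq transcripts here, and the value per gene does not separate them. The antisense gene Gm13012 overlaps 1568 bases of the locus. Within a library, the ratio of Edn1 to Ece1 was 0.179, 0.140 and 0.156 in WT and 0.181, 0.192 and 0.188 in 3KR. The enzyme transcript exceeded the precursor transcript several-fold in every library, and the ratio was 1.18-fold higher in 3KR (exact two-sided permutation p = 0.1, the smallest possible).

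By level, the order in WT was Klf6, Ece1, Klf4, Klf10, Klf2, Nos3 and Edn1, and it was the same in 3KR. Among neighbours in that order, the ranges of Klf10 and Klf2 overlapped in both genotypes and those of Nos3 and Edn1 overlapped in WT, whereas in 3KR every Nos3 value was above every Edn1 value. Klf4 stood between Ece1 and Klf10 in both, but its mean was close to Ece1 in WT (27.7 against 34.4 FPKM) and close to Klf10 in 3KR (13.7 against 11.8 FPKM). Within single libraries, Klf6 exceeded at least 95.4% of the 17463 table entries, Ece1 at least 92.3%, Klf2 at least 71.8% and Edn1 at least 59.1%. The percentile of Klf4 ranged from 78.2% to 91.5% and that of Nos3 from 61.7% to 71.8%.

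**Figure D3:**
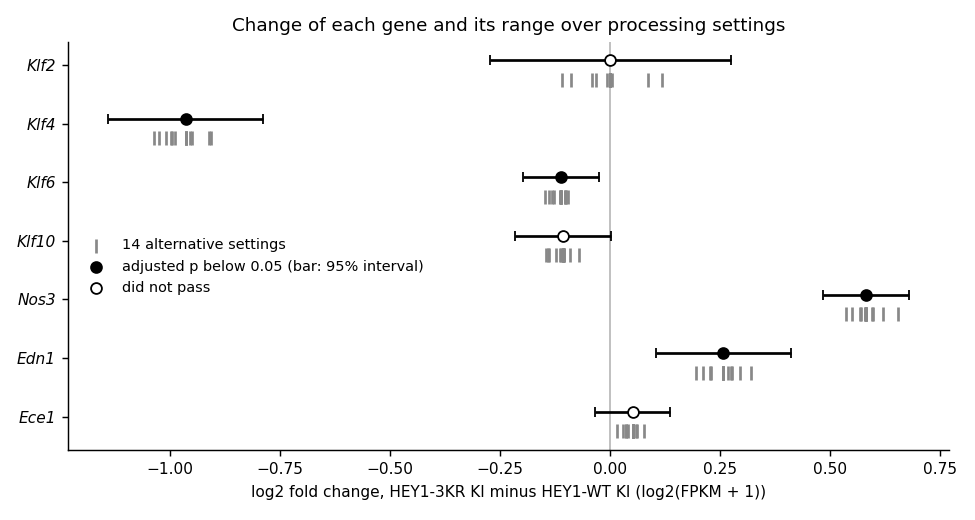
Log2 fold change of 3KR over WT on the log2(FPKM + 1) scale for each gene, with its 95% interval (filled circles passed, open circles did not) and, as grey ticks, its values under 14 alternative settings. Klf4 (-0.96) and Nos3 (0.58) keep their distance from 0 under all 14, whereas the ticks of Klf2 lie on both sides of 0.

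Around these genes, 8 lists of related genes were described, of which 100 genes outside the 7 were in the table and 79 were tested. Of the 79, 33 were higher, 18 lower and 28 did not pass, so 64.6% were called, and the median log2 fold change was 0.080. Over all genes tested 53.2% were called, 29.9% higher and 23.4% lower, with a median of 0.019, and the count of each list below stands beside these shares and was not tested against them. The lists are those of the KLF and SP family, the inputs to Klf2 and Klf4, their reported targets, nitric oxide synthesis, arginine supply, cGMP signalling and the endothelin system.

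Of 18 other KLF and SP factors 12 were tested, 6 were higher, 2 lower and 4 did not pass, with a median log2 fold change of 0.19. Klf13 rose from 10.2 ± 0.382 to 12.6 ± 0.299 FPKM, and Sp2 rose from 7.73 ± 0.792 to 10.2 ± 0.644 FPKM, 1.33-fold. Sp4 averaged 0.521 ± 0.256 and 1.17 ± 0.0469 FPKM, a rise at a low level. The lower genes, named after their values were seen, were Klf5, 3.00 ± 0.207 against 2.22 ± 0.266 FPKM, and Klf15, 3.27 ± 0.158 against 2.82 ± 0.19 FPKM. No other tested factor of the family fell as far as Klf4 on the log2 scale.

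Of 15 genes of the MEKK3, ERK5 and MEF2 inputs to Klf2 and Klf4, 13 were tested, 3 were higher, 4 lower and 6 did not pass, with a median of -0.025. Piezo1, a mechanically gated channel that senses flow, fell from 75.3 ± 3.76 to 50.1 ± 2.18 FPKM, 1.5-fold (log2 fold change -0.58; limma adjusted p = 1.4e-05). Map3k3, which encodes MEKK3, rose 1.34-fold, from 19.4 ± 0.671 to 26.0 ± 1.09 FPKM, and Hdac7, a repressor of MEF2 activity in endothelium, fell from 22.5 ± 0.268 to 18.5 ± 0.225 FPKM. Genes named after their values were seen were Mapk7, which encodes ERK5 and rose 1.17-fold, Mef2a, which rose 1.35-fold, and Map2k5, which encodes MEK5 and fell from 8.12 ± 0.0484 to 6.93 ± 0.210 FPKM. Genes that promote this cascade thus changed in both directions.

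Of 14 genes reported to rise with KLF2 or KLF4 in endothelium, Nos3 included, 11 were tested, 7 were higher, 3 lower and 1 did not pass, with a median log2 fold change of 0.50. Several of these genes are themselves typical of endothelium, whose 12 markers had a median of 0.65 with 11 higher, and the part of that in the values of this list was not tested. Plat, the tissue plasminogen activator, rose 3.00-fold to 16.9 ± 0.150 FPKM, and S1pr1, a sphingosine 1-phosphate receptor that stabilises vessels, rose 1.97-fold to 53.2 ± 0.858 FPKM. Cyp1b1, a cytochrome P450 also expressed by fibroblasts, fell from 11.3 ± 0.560 to 3.94 ± 0.251 FPKM. Thbd, the thrombomodulin gene and with Nos3 the best known target, is named after its values were seen and fell from 60.3 ± 1.40 to 47.6 ± 1.29 FPKM, the opposite direction to Nos3. Tek, also an endothelial marker, is on this list too and rose 1.92-fold. Of 10 genes reported to fall, Edn1 included, 8 were tested, 5 were higher and 3 lower, with a median of 0.26. Kdr, an endothelial marker named after its values were seen, is among them and rose 1.37-fold. The part of the rise of endothelial markers in the values of this second list was not tested either. Angpt2, an angiopoietin that destabilises vessels, rose 1.40-fold to 48.8 ± 1.48 FPKM, and Ccl2, a monocyte chemokine made by many cells, rose 1.44-fold to 48.8 ± 2.78 FPKM. Vcam1, F3 and Icam1 are named after their values were seen. Vcam1 fell from 28.8 ± 0.639 to 23.6 ± 0.494 FPKM and F3 from 42.2 ± 0.505 to 35.1 ± 1.43 FPKM. Icam1, an adhesion molecule gene like Vcam1, rose from 12.2 ± 0.735 to 14.9 ± 0.734 FPKM.

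Of 13 nitric oxide synthases and eNOS regulators 12 were tested, 4 were higher, 1 lower and 7 did not pass, with a median of 0.053. The share called was 41.7%, beside 53.2% of all genes tested, and the difference was not tested. Nos2, the inducible synthase typical of activated macrophages, rose from 0.995 ± 0.108 to 2.11 ± 0.10 FPKM, 2.12-fold but still under Nos3 in every library. Nostrin and Nosip, which encode proteins that bind eNOS and move it away from the membrane, rose 1.40-fold and 1.14-fold. Cav1, the caveolin that holds eNOS inactive and is named after its values were seen, averaged 118.4 ± 3.39 and 112.4 ± 1.84 FPKM and did not pass (limma adjusted p = 0.0987). Nos1, the neuronal synthase, was below the filter.

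The largest changes on these lists concerned arginine, the substrate of eNOS. Of 15 genes of arginine and tetrahydrobiopterin supply 12 were tested, 2 were higher, 3 lower and 7 did not pass, with a median of 0.0099. Arg1, the arginase that consumes arginine and is abundant in alternatively activated macrophages, rose from 46.1 ± 0.609 to 263.6 ± 2.67 FPKM, 5.71-fold. Ass1, which encodes argininosuccinate synthase and rebuilds arginine from citrulline, read 33.7, 32.3 and 34.7 FPKM in WT and 9.84, 9.30 and 11.1 FPKM in 3KR, 3.32-fold lower (log2 fold change -1.64; limma adjusted p = 1.5e-07). Asl, the next enzyme of that cycle, fell from 8.03 ± 0.243 to 5.71 ± 0.283 FPKM. Both enzymes of arginine resynthesis were lower and the arginase higher in the libraries with more Nos3. These genes are expressed by macrophages and other cells as well as endothelium, and the macrophage markers above were higher in the same libraries, whose part in these values was not tested.

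Downstream of nitric oxide, 9 genes were listed and 8 tested, of which 4 were higher, 1 lower and 3 did not pass, with a median of 0.21. Both subunits of the main nitric oxide receptor, Gucy1a1 and Gucy1b1, rose 1.62-fold and 1.51-fold, to 2.41 ± 0.133 and 6.55 ± 0.521 FPKM. Pde5a, the phosphodiesterase that degrades cGMP, rose 1.33-fold. In the endothelin system, 10 further genes were listed, 9 were in the table and 5 tested, of which 4 were higher and 1 lower, with a median of 0.18. Ednra, the constrictor receptor typical of smooth muscle and fibroblasts, rose from 2.96 ± 0.0456 to 5.63 ± 0.141 FPKM, 1.9-fold, and Furin, a protease that processes the endothelin precursor before ECE1, rose 1.14-fold. Ece2, a second converting enzyme, fell from 2.15 ± 0.217 to 0.905 ± 0.0319 FPKM. Ednrb, the receptor through which endothelium responds and which is named after its values were seen, rose from 9.13 ± 0.188 to 11.1 ± 0.861 FPKM. Edn2 and Edn3, the other endothelin genes, were below the filter.

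**Figure D4:**
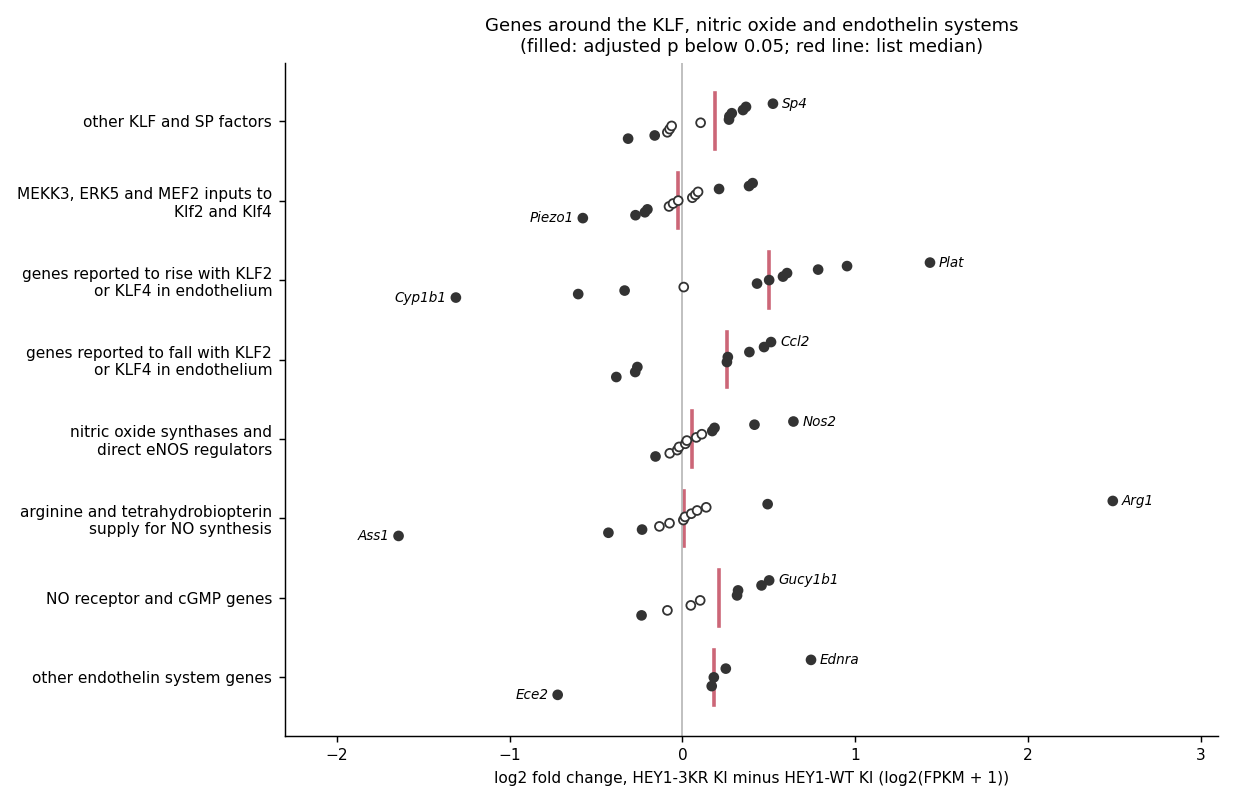
Log2 fold change of 3KR over WT on the log2(FPKM + 1) scale for the tested genes of 8 lists around the 7 genes (points; filled where the adjusted p was below 0.05), with the median of each list as a red line and the lowest and highest gene of a list named where it lies beyond 0.5 in either direction. Arg1 (2.49) and Ass1 (-1.64) lie farthest from 0, and the medians run from -0.025 to 0.50.

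Genes with the most similar profile were sought by the root mean square difference, over the 6 libraries, between log2(FPKM + 1) values centred on each gene's mean. Klf2 was nearest to Mrps34, a mitochondrial ribosomal protein gene, at 0.025, and to Dusp1, an immediate early phosphatase gene, at 0.038. Dusp1 read 21.5, 17.4 and 15.3 FPKM in WT and 16.5, 17.6 and 21.6 FPKM in 3KR. The likeness of its library spread to that of Klf2 follows from how Dusp1 was chosen. Klf4 was nearest to Col12a1, a fibril-associated collagen gene, at 0.040, and to Tmem151a at 0.059. Col12a1 averaged 27.7 FPKM in WT and 13.4 FPKM in 3KR. Nos3 was nearest to Ifngr1, an interferon gamma receptor gene, at 0.013, and to Tubb6, a tubulin gene, at 0.016, and Edn1 to Cep57 and Cinp at 0.027 and 0.028. A difference under 0.1 from Klf2 was found in 89 genes, from Klf4 in 33, from Nos3 in 652 and from Edn1 in 1184, and for Klf6, Klf10 and Ece1, which varied little, in 3789, 3476 and 4528. The nearest of these were Rps6kc1 and Spag9 for Klf6, Plekhg3 and Sorbs3 for Klf10 and Zfp110 and Xpr1 for Ece1, none of which stands out among so many. With 6 libraries in 2 groups such likeness rests on few values that share their libraries.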

How the data were processed

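The values are FPKM per gene and library as the authors deposited them, which the column names state. Tools named in the submitters' processing notes are HISAT2 2.1.0, StringTie 1.3.3b, SAMtools 1.9 and FastQC 0.19.7, with mm10 as the build. The annotation and the strand setting are not given here by any label or header. Each FPKM is relative to each library's total, so a rise of abundant genes lowers the others.

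The 17463 entries carried 17450 symbols, and the entry of highest mean kept a repeated symbol. Depth was estimated for 2396 genes with a single GENCODE M21 transcript from the densest low value of FPKM times length, taken as 1 fragment, searched from 10 to 50 M (M, 1000000) fragments. Between 41.9% and 47.2% of the low values of a library were no more than 0.1 from a whole number of fragments, where evenly spread values give 20%, so depths are approximate and no count test was run. A floor of 3 fragments in 1 kb is 0.152 to 0.185 FPKM, for counting error only.

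The 11432 genes that reached 1 FPKM in 3 or more libraries were compared on log2(FPKM + 1), a scale that understates changes of low genes, by limma 3.58.1 in R 4.3.3 (lmFit, eBayes with a variance trend, two-sided, Benjamini-Hochberg adjustment over all tested, threshold 0.05). Folds and SDs are of FPKM. The fit was tested on simulated data. Ratios were compared by exact two-sided permutation, which cannot go below 0.1. Promoter sequences are from RefSeq (GRCm38.p6, the same assembly as mm10). Tables were handled in Python 3.11.15 (numpy 2.4.6, pandas 2.3.3, scipy 1.17.1) and drawn with matplotlib 3.10.9.

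The 7 genes and the lists were chosen with earlier results of these data known. All 7 are named, as are the up to 3 called genes of smallest p in each list, the 2 of each marker list with the highest mean over the 6 libraries, the 2 nearest profiles of each gene, and others where the text says so; 1 gene that this rule names is not reported here. The symbols Nppc and Kel of the lists had no entry.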

Additional observations from a re-analysis of the deposited data

How the results depend on the processing

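Under 14 alternatives (pseudocounts of 0.1 and 0.5, no filter, a mean of at least 5 FPKM, median-of-ratios scaling, quantile normalization, no variance trend, the replicate block and leaving out each library), Klf4 stayed between -1.04 and -0.91 and Nos3 between 0.54 and 0.65 on the log2 scale, and Nos3, Klf4 and Edn1 kept their calls (highest limma adjusted p 0.0410, for Edn1). Klf6 kept its direction but lost its call without the variance trend (-0.11; limma adjusted p = 0.0644) and in 4 of the 6 fits that left out a library, where it ran from -0.14 to -0.096. Klf10 gained a call after median-of-ratios scaling (-0.14) and quantile normalization (-0.14), and ran from -0.15 to -0.070 with a library left out. Klf2 changed sign after median-of-ratios scaling (-0.032) and quantile normalization (-0.040) and ran from -0.11 to 0.12 with a library left out, at -0.0895 without HEY1-3KR KI replicate 3, -0.0061 without HEY1-WT KI replicate 2 and -0.11 without HEY1-WT KI replicate 3, and passed in none. Ece1 kept its direction and did not pass. The smooth muscle genes Acta2 (-0.0050 and -0.094 after the same scalings, the latter with a limma adjusted p of 0.0161) and Tagln (from -0.036 to 3.1e-05 with a library left out) also changed sign. All genes called were 4055 with a mean of at least 5 FPKM, where 7196 genes were tested, against 6084. Of the 7 genes, 3 to 5 were called. Among 34 genes named from the lists, 30 kept direction and call under each alternative run. The differences of the 3 ratios kept their direction under 8 alternatives each.

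With the replicate number as a block, 6134 genes and the same number of the 7, 4, were called, and no call among the 7 changed. Same-numbered libraries did not all deviate together across genes (correlations of -0.19, 0.25 and -0.27 for numbers 1, 2 and 3), so the numbers were not taken as pairs. The highest correlations joined HEY1-WT KI 1 with HEY1-3KR KI 3 (0.38), HEY1-WT KI 3 with HEY1-3KR KI 1 (0.27) and HEY1-WT KI 2 with HEY1-3KR KI 2 (0.25). Klf2 was highest in HEY1-WT KI 1 and HEY1-3KR KI 3 and lowest in HEY1-WT KI 3 and HEY1-3KR KI 1. A block by this matching was not fitted, and what these libraries share was not tested. The cause of the lost and gained calls was not tested. Counting noise could be estimated for Edn1 and Klf2 only, from approximate depths.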
